A study of Homo sapiens with 20 samples.

Results

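The genes described here are 5 aquaporins, AQP1, AQP3, AQP7, AQP9 and AQP11, and 5 genes of the cellular response to hypertonic medium, NFAT5, AKR1B1, SLC5A3, SLC6A6 and SLC38A2, in HepaRG cells. They were chosen by name, and every probe whose RefSeq accession belongs to 1 of the 10 genes was taken, which gave 14 of the 42405 probes of the array. Of these, 13 passed the filter on dim signals, so that all 10 genes were among the 22062 genes tested.

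HepaRG is a human hepatoma line whose bipotent progenitors become hepatocyte-like and biliary-like cells in the same dish. All cultures were kept in medium with serum, insulin and hydrocortisone. Progenitors were taken at day 4 (D4) and committed cells at day 15 (D15), both without dimethyl sulfoxide (DMSO). Some cultures were then held to day 30 without it (D30 − DMSO) or with 2% DMSO from day 15 to day 30 (D30 + DMSO), and others had the same 2% DMSO to day 30 and then 4 days without it (D34 ± DMSO). Each of the 5 conditions has 4 one-color arrays of total RNA. The series describes 4 independent experiments with cells of 1 line, so that p-values measure the spread between experiments on that line, and the labels do not say which arrays came from the same experiment.

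Aquaporins are channels that let water cross the membrane along its osmotic gradient, and the aquaglyceroporins AQP3, AQP7 and AQP9 also carry glycerol. AQP9 is the main glycerol channel of hepatocytes, where it takes up glycerol for glucose production, while AQP11 is an intracellular member of the family. When medium is hypertonic, many cells raise the transcription factor NFAT5 (also called TonEBP), whose targets bring in or make small organic osmolytes. AKR1B1 makes sorbitol, SLC5A3 carries myo-inositol, SLC6A6 carries taurine and SLC38A2 carries neutral amino acids. DMSO adds to the osmolarity of a medium and crosses membranes readily. The question put to these arrays was whether 2% DMSO moved the genes of this response. Cells in DMSO were sampled only at day 30, after exposure from day 15, so that an earlier or passing response was not measured.

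Levels are given as log2 of the processed signal relative to the 75th percentile of each array, which is 0. They compare 1 probe between conditions and not 1 gene with another. A gene passed the test between 2 conditions if its limma p, adjusted over all genes by the Benjamini-Hochberg method, was below 0.005 and its means differed by more than 2-fold. DMSO addition is D30 + DMSO against D30 − DMSO, and DMSO removal is D34 ± DMSO against D30 + DMSO. These comparisons share the D30 + DMSO arrays. No cells were taken at day 34 with DMSO kept on or never given. Removal and the 4 more days of culture therefore cannot be told apart. The comparison of D34 ± DMSO with D30 − DMSO likewise sets day 34 against day 30. Between 61.1% and 74.2% of the spots of an array were well above background. The arrays lay on 4 slides, read in 2 scan sessions, and slide 4 was the only slide of the second session. The D30 + DMSO arrays lay only on slides 3 and 4.

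DMSO addition changed 2 of the 10 genes, AQP9 and AQP11, and both rose. Of all genes tested, 5.9% passed the same test. DMSO removal changed the same 2 genes, and both fell, against 7.04% of all genes. None of the 10 genes passed between D34 ± DMSO and D30 − DMSO with limma, where 1.53% of all genes did, and 2 of the 10, AQP11 and SLC5A3, had an unadjusted p below 0.05. Neither the methods' t-test nor limma called a member there.

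**Figure D1:**
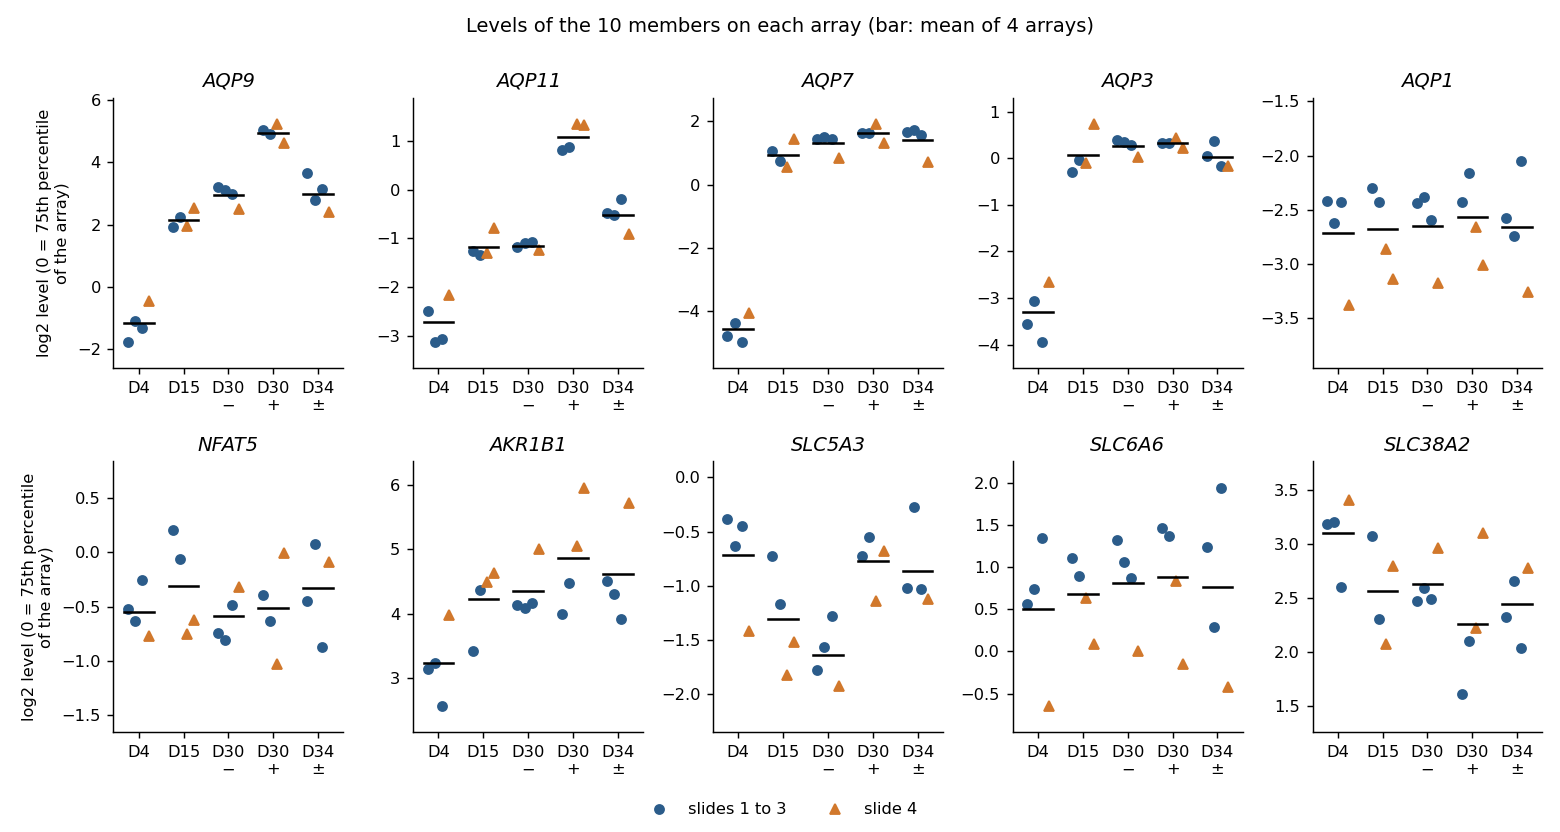
Levels of the 10 genes on each of the 20 arrays, in log2 relative to the 75th percentile of the array, with 4 arrays for each condition and a bar at their mean. Triangles are arrays of slide 4 and circles those of slides 1 to 3. AQP9 and AQP11 are highest on the 4 D30 + DMSO arrays, and AQP7 and AQP3 are low on the D4 arrays.

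AQP9 (NM_020980, chromosome 15), the hepatocyte glycerol channel, rose on DMSO addition and fell on removal. Its level on the 4 D30 − DMSO arrays was 3.20, 3.13, 2.98 and 2.52, and on the 4 D30 + DMSO arrays it was 5.04, 4.93, 5.24 and 4.62. All 4 exposed arrays lay above all 4 unexposed ones. The change was 2.00 on the log2 scale (4.00-fold, SE 0.27, adjusted p = 3.6e-05 with limma). At D34 ± DMSO the level was 3.65, 2.81, 3.13 and 2.43, below every D30 + DMSO array. AQP9 fell by 1.95 on removal (3.87-fold, SE 0.27, adjusted p = 3.3e-05). The levels after removal overlapped those of cells that never had DMSO, with a difference of 0.05 and a 95% confidence interval from −0.53 to 0.62.

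AQP9 was already moving before DMSO. Its mean level was −1.16 ± 0.55 (SD, n = 4) at D4 and 2.16 ± 0.28 at D15, a rise of 3.32 (9.99-fold, SE 0.27, adjusted p = 3.9e-08 with limma). From D15 to D30 − DMSO it differed by 0.79 with overlapping arrays (adjusted p = 1.0). In order of level, D4 was lowest, followed by D15, D30 − DMSO and D34 ± DMSO, and D30 + DMSO was highest. Of the neighbours in this order, D15 and D30 − DMSO overlapped, as did D30 − DMSO and D34 ± DMSO. From D15 to D30 + DMSO the change was 2.79 (6.94-fold, SE 0.27).

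AQP11 (NM_173039, chromosome 11), the aquaporin of intracellular membranes, also rose on addition and fell on removal. Its level was −1.19, −1.09, −1.08 and −1.24 on the D30 − DMSO arrays and 0.82, 0.87, 1.35 and 1.33 on the D30 + DMSO arrays. The groups did not overlap. The change was 2.24 (4.74-fold, SE 0.21, adjusted p = 6.3e-07 with limma). After removal the level was −0.47, −0.53, −0.19 and −0.90, a fall by 1.62 (3.06-fold, SE 0.21, adjusted p = 1.7e-05). All 4 D34 ± DMSO arrays lay below the D30 + DMSO arrays and above the D30 − DMSO arrays. The difference from never exposed cells was 0.63 (1.55-fold, 95% confidence interval 0.18 to 1.07), which did not pass (adjusted p = 0.11).

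AQP11 rose between D4, at −2.72 ± 0.46 (SD, n = 4), and D15, at −1.17 ± 0.25, by 1.55 on the log2 scale (2.92-fold, SE 0.21, adjusted p = 1.9e-05 with limma). Without DMSO it differed by 0.02 from D15 to D30 − DMSO, with a 95% confidence interval from −0.42 to 0.47. From D15 to D30 + DMSO it rose by 2.27 (4.81-fold, SE 0.21). Its 4 D30 + DMSO arrays lay above all arrays of the other conditions.

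The changes of both genes were also present within single slides. Within slide 3, AQP9 differed by 1.79 and AQP11 by 2.03 between 2 D30 + DMSO arrays and 1 D30 − DMSO array, and within slide 4 by 2.41 and 2.58. With slide as a block, the change on addition was 1.89 (SE 0.29) for AQP9 and 2.22 (SE 0.22) for AQP11. Without the arrays of slide 4 it was 1.88 and 1.96, and both still passed. That fit keeps 2 D30 + DMSO arrays, both on slide 3, and 3 D30 − DMSO arrays. With slide as a block, the same 2 members passed for removal, against 8.4% of all genes, and with limma none passed between D34 ± DMSO and D30 − DMSO, against 1.94%. The fall on removal missed the threshold under the methods' t-test, with an adjusted p of 0.00945 for AQP9 and 0.00599 for AQP11.

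Marker levels of cell types also differed between these conditions. The mean log2 level of 6 hepatocyte markers (ALB, APOA1, TTR, SERPINA1, TF and HNF4A) lay between 5.86 and 5.98 on the D30 − DMSO arrays, between 6.31 and 6.88 on the D30 + DMSO arrays and between 5.91 and 6.13 after removal. None of the 6 passed the test for DMSO addition with limma or the methods' t-test, and 4 had an unadjusted p below 0.05. At D4 their mean lay between 1.51 and 2.69, and all 6 rose by D15. Among 7 biliary and progenitor markers 5 were tested, without EPCAM and CFTR, which were too dim, and their mean lay between 1.41 and 1.56 at D30 − DMSO and between 1.18 and 1.45 at D30 + DMSO, and 1 of the 5 passed as higher and 1 as lower on addition. The 6 proliferation markers had a mean between −2.73 and −1.49 at D30 + DMSO and between 0.49 and 1.56 at D34 ± DMSO, and all 6 rose on removal. In such mixed cultures, more cells of a type and more RNA per cell cannot be told apart, and the part of these shifts in the aquaporin changes was not tested.

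The genes whose levels over the 20 arrays ran closest to AQP9 were the transcript NM_000029 (Pearson r = 0.992), SLC38A3 (r = 0.991) and PAQR9 (r = 0.990). SLC38A3 is a glutamine transporter of hepatocytes. Closest to AQP11 were CDO1 (r = 0.986), AOX1 (r = 0.980) and HGD (r = 0.975). CDO1 makes the first step from cysteine towards taurine, AOX1 is aldehyde oxidase and HGD acts in tyrosine breakdown. These 20 points share the 5 conditions, the slides and the scaling of each array, and the correlations are a description.

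**Figure D2:**
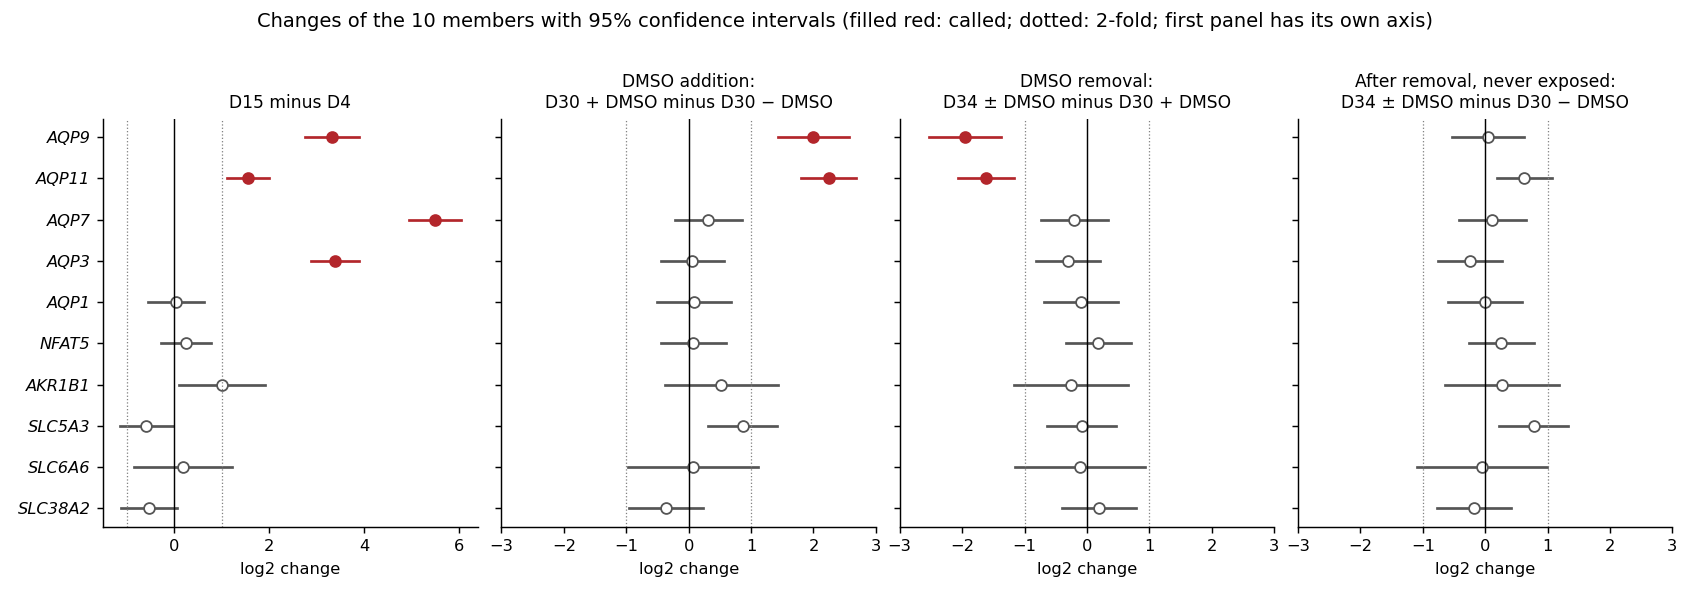
Log2 changes of the 10 genes with 95% confidence intervals from limma, for D15 minus D4, DMSO addition, DMSO removal and D34 ± DMSO minus D30 − DMSO, where filled red points passed the test and dotted lines mark 2-fold. AQP9 and AQP11 are the filled points for addition and removal, and 4 aquaporins are filled for D15 minus D4.

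Between D4 and D15, 4 of the 10 genes rose, the aquaporins AQP3, AQP7, AQP9 and AQP11, against 9.53% of all genes that passed in either direction. None of the 5 osmotic stress genes passed there. From D15 to D30 − DMSO no member passed with limma or the methods' t-test, against 0.00453% of all genes, and only AQP9 had an unadjusted p below 0.05. From D15 to D30 + DMSO 2 members passed, AQP9 and AQP11, against 6.44%. Over all conditions, the same 4 aquaporins passed limma's moderated F-test, against 5.41% of all genes. That test asked for a p below 0.001 after Bonferroni adjustment and condition means that spanned more than 3-fold.

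The promoter windows of the 3 aquaglyceroporins and of SLC5A3, 1 of the NFAT5 targets in the set, are shown. They let the sequence near the start site be read beside the changes. They come from RefSeq on GRCh38.p14, 5′ to 3′ on the strand of the gene, from 250 bases before the start site to 50 from it onwards. RefSeq windows were at hand for 7 of the 10 genes, and those of AQP1, AKR1B1 and SLC38A2 are not shown. That of SLC5A3 lies at the base where the annotated span of the gene MRPS6 also begins. AQP9 has 2 windows, and the one at the outer start is shown. It lies at chr15:58137919-58138218 on the plus strand, AQP7 at chr9:33402519-33402818 and AQP3 at chr9:33447544-33447843 on the minus strand, and SLC5A3 at chr21:34073328-34073627 on the plus strand. Capitals mark AGGTCA, the half-site of many nuclear receptors, or its reverse complement TGACCT, and would also mark TGGAAA or TTTCCA, the core of the NFAT5 element.
AQP9: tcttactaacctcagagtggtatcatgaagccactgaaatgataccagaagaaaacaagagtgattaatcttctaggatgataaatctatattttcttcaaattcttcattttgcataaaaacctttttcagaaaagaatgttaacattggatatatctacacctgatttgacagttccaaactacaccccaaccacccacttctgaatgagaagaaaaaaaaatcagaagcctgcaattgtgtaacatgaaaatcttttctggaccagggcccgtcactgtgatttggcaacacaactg
AQP7: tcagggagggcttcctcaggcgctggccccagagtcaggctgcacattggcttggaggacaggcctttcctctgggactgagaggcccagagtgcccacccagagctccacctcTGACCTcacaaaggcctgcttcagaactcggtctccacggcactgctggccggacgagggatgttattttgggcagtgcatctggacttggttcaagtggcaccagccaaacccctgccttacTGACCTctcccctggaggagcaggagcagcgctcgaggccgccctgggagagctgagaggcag
AQP3: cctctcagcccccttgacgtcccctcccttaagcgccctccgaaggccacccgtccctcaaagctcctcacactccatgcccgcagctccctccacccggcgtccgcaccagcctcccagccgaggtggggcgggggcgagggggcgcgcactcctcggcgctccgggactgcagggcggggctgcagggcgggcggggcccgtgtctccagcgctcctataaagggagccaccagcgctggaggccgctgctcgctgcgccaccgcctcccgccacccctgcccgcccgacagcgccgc
SLC5A3: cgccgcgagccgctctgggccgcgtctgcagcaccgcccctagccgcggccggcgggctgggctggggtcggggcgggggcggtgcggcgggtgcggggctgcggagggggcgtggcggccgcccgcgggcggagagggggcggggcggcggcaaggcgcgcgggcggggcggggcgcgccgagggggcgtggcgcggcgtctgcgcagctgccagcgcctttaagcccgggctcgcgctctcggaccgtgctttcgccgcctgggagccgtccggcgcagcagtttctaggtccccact
The AQP7 window holds 2 matches to the half-site, which begin at −136 and −13 relative to the start site, and the other 3 windows hold none of these letters. The core TGGAAA, on either strand, is in 20.7% of all 35116 RefSeq windows of this length, and the half-site in 13.8%. Over the 9 windows of the 7 genes the core is in 1, that of SLC38A2, and the half-site in 1, that of AQP7. A match is not a binding site, and its absence speaks only of these letters in this window.

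AQP7 (NM_001170) and AQP3 (NM_004925) are neighbours on chromosome 9, both on the minus strand, with 38591 bases and no protein-coding gene between them. Both rose between D4 and D15 and passed in no later comparison. AQP7, a glycerol channel best known from adipocytes, had a level of −4.77, −4.36, −4.97 and −4.06 at D4 and 1.08, 0.74, 0.57 and 1.43 at D15. The rise was 5.49 (45.0-fold, SE 0.26, adjusted p = 8.0e-11 with limma). At D4 it was well above background on 2 of the 4 arrays, so that the size of this fold is uncertain, and a filter that asks for signal on all arrays removes the gene.

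AQP3, a water and glycerol channel of many epithelia, had a level of −3.56, −3.07, −3.95 and −2.66 at D4 and −0.30, −0.03, −0.11 and 0.74 at D15. It rose by 3.38 (10.4-fold, SE 0.24, adjusted p = 8.2e-09 with limma). A further AQP3 probe rose by 3.90 (15.0-fold, SE 0.51), with 1 of 4 D4 arrays well above background. On DMSO addition AQP3 differed by 0.06 (95% confidence interval −0.45 to 0.57) and AQP7 by 0.31 (95% confidence interval −0.23 to 0.85). With slide as a block the interval for AQP7 ran from −0.17 to 1.01, which holds a rise of 2-fold, and its difference was 0.20 within slide 3 and 0.78 within slide 4. The corresponding values for removal were −0.31 (−0.82 to 0.20) for AQP3 and −0.20 (−0.74 to 0.34) for AQP7.

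AQP1 (NM_198098, chromosome 7), the water channel of bile ducts and of red cells, did not pass in any comparison. Its means over the 5 conditions lay between −2.71 and −2.56. On addition it differed by 0.09, with a 95% confidence interval from 0.704-fold to 1.60-fold. A further AQP1 probe was well above background on 1 of the 20 arrays and was left out. In each condition the lowest arrays were those of slide 4, which lay between −3.38 and −2.66. With the scan session as a block the difference was 0.26 (adjusted p = 0.18).

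NFAT5 (NM_138714, chromosome 16), the transcription factor of the hypertonic response, did not pass in any comparison. Its level was −0.75, −0.80, −0.48 and −0.32 on the D30 − DMSO arrays and −0.39, −0.63, −1.03 and −0.01 on the D30 + DMSO arrays. The groups overlapped. The difference was 0.08 (SE 0.25, adjusted p = 0.91 with limma), and its 95% confidence interval ran from 0.733-fold to 1.52-fold. On removal it differed by 0.18 (95% confidence interval −0.34 to 0.71). Over the 5 conditions its means lay between −0.59 and −0.31. The arrays measure NFAT5 mRNA and say nothing of the activity of the protein.

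SLC5A3 (NM_006933, chromosome 21), the myo-inositol transporter, had the lowest adjusted p on DMSO addition among the 5 osmotic stress genes. Its level was −1.78, −1.57, −1.28 and −1.93 at D30 − DMSO and −0.72, −0.55, −1.14 and −0.68 at D30 + DMSO, with every exposed array above every unexposed one. The difference was 0.87 (1.82-fold, 95% confidence interval 1.24-fold to 2.67-fold, adjusted p = 0.027 with limma), which did not pass. With slide as a block it passed, at 1.16 (2.23-fold, SE 0.17, adjusted p = 0.00012). This block called 3 of the 10 members for addition, against 7.26% of all genes. Within slide 3 the difference was 1.14 and within slide 4 it was 1.02, while without the arrays of slide 4 it was 0.91 (adjusted p = 0.031).

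After removal, SLC5A3 did not pass. At D34 ± DMSO its level was −1.02, −0.27, −1.03 and −1.12, which overlapped D30 + DMSO. The difference on removal was −0.09 (SE 0.26, 95% confidence interval −0.64 to 0.47). Against never exposed cells it was 0.78 (1.72-fold, SE 0.26, adjusted p = 0.11), again with every array higher. With slide as a block this was 0.87 (1.83-fold, adjusted p = 0.0028), under the 2-fold limit. At D4 the mean was −0.72 ± 0.48 (SD, n = 4), and at D30 + DMSO it was −0.77 ± 0.25. SLC5A3 overlaps the gene MRPS6 in the annotation and begins at the same base. MRPS6 differed by 0.19 on addition (adjusted p = 0.44 with limma).

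**Figure D3:**
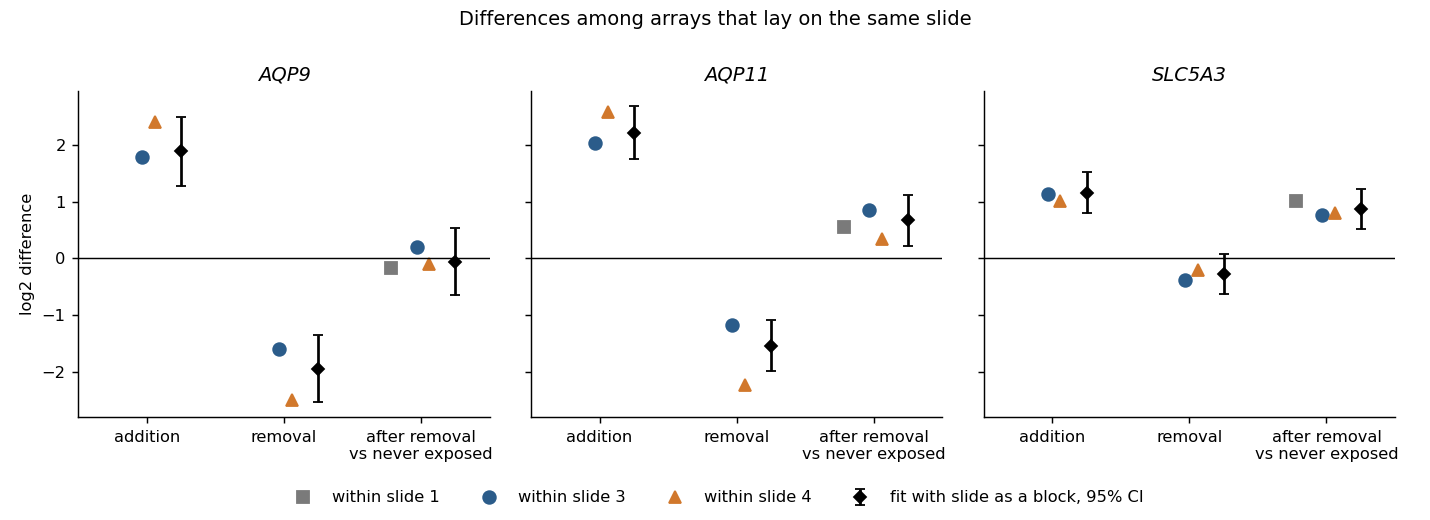
Log2 differences for AQP9, AQP11 and SLC5A3 between arrays of the same slide, for DMSO addition, DMSO removal and D34 ± DMSO minus D30 − DMSO, with the fit that has slide as a block and its 95% confidence interval as a diamond. AQP9 and AQP11 are above 1 on addition and below −1 on removal within slides 3 and 4, and SLC5A3 is above 1 on addition and between −0.39 and −0.21 on removal.

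AKR1B1 (NM_001628, chromosome 7), the aldose reductase that turns glucose into sorbitol, did not pass in any comparison. Its level was 4.14, 4.09, 4.16 and 5.00 at D30 − DMSO and 3.99, 4.48, 5.06 and 5.96 at D30 + DMSO. The groups overlapped, and replicate 4 was the highest array in each condition. The difference on addition was 0.52 (SE 0.43, 95% confidence interval −0.39 to 1.43), wide enough to hold a rise of 2-fold. Within slide 3 it was 0.10 and within slide 4 it was 0.50. From D4, at 3.23 ± 0.58 (SD, n = 4), to D15, at 4.23 ± 0.55, the difference was 1.00 (adjusted p = 0.11 with limma).

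SLC6A6 (NM_003043, chromosome 3), the taurine transporter, has 2 probes that disagree over the first phase of culture. The brighter probe differed by 0.18 between D4 and D15 (95% confidence interval −0.86 to 1.22). The dimmer one differed by −1.50 (SE 0.38, adjusted p = 0.0061 with limma, over all probes), with all 4 D15 arrays below all 4 D4 arrays. It did not pass either. On DMSO addition the probes differed by 0.07 (95% confidence interval −0.97 to 1.11) and 0.18 (−0.61 to 0.96). The brighter probe was lowest on replicate 4 in every condition, at −0.65, 0.09, 0.01, −0.15 and −0.42 from D4 to D34 ± DMSO.

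SLC38A2 (NM_018976, chromosome 12), the neutral amino acid transporter SNAT2, did not pass in any comparison. Its brighter probe was at 2.47, 2.59, 2.49 and 2.96 at D30 − DMSO and at 1.62, 2.10, 2.22 and 3.10 at D30 + DMSO, with overlapping arrays. The difference was −0.37 (SE 0.28, 95% confidence interval −0.96 to 0.22), and that of the further probe was −0.45 (SE 0.16, adjusted p = 0.065 with limma). Neither probe passed. Between D4 and D15 the probes differed by −0.53 and −0.80, and the second of these had an adjusted p of 0.0012 but a change of 1.74-fold. On removal they differed by 0.19 and 0.25.

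The genes around these members were taken from 7 lists, of which 68 of 79 genes were tested. Of these, 10 passed on addition, where 5.9% of all genes did, and 6 on removal, where 7.04% did, which for removal is near the share of all genes. AQP4 was the 1 gene that passed on removal alone. Median changes of the lists lay between −0.03 and 0.63, against 0.04 over all genes. No other aquaporin passed on addition with limma or the methods' t-test, and of the 5 tested, 1 had an unadjusted p below 0.05. This was AQP4, a water channel of brain astrocytes, which differed by 1.15 on addition (SE 0.39, adjusted p = 0.046) and fell by 1.87 on removal (3.65-fold, SE 0.39, adjusted p = 0.0016). Its level at D34 ± DMSO was −4.56 ± 1.01 (SD, n = 4), with 3 of 4 arrays well above background, so that the size of this fall is uncertain. With slide as a block AQP4 passed on addition as well, at 1.30 (SE 0.29, adjusted p = 0.0036). The methods' t-test called none of the 5 other aquaporins on removal.

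Among 8 other NFAT5 or hypertonicity targets, 1 passed on addition, and it fell. This was S100A4, a calcium-binding protein, which fell by 2.13 (4.37-fold, SE 0.33, adjusted p = 0.00015 with limma) and rose by 2.60 on removal (6.07-fold, SE 0.33). The methods' t-test called none of the 8 on addition or on removal. The range of the 8 changes on addition was −2.13 to 0.91, and 4 were above 0. Of 10 genes of osmotic signalling upstream of NFAT5, none passed on addition with limma or the methods' t-test, and 4 had an unadjusted p below 0.05. Their changes lay between −0.56 and 0.75.

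The list of organic osmolyte metabolism had the highest median of these lists, 0.63, against 0.04 over all genes. Of its 12 tested genes, 11 had a change above 0 on addition. All 6 hepatocyte markers, with a median of 0.55, and 9 of the 10 members were also above 0. In the other lists 3 of 5 other aquaporins, 4 of 8 NFAT5 or hypertonicity targets and 9 of 18 ion transport genes were above 0. So were 5 of 10 upstream signalling genes, 4 of 6 glycerol genes and 5 of 9 SLC38 transporters. Medians of these other lists lay between −0.03 and 0.20. The share of all genes above 0 was not counted, and the cause of the shift was not tested. Of the 12 tested genes, 2 passed on addition, against 5.9% of all genes. The methods' t-test called 1 of the 12 on addition and none on removal. CDO1, of cysteine and taurine metabolism, rose by 1.71 (3.28-fold, SE 0.15, adjusted p = 2.4e-07 with limma) and fell by 1.38 on removal. GPCPD1, which splits the osmolyte glycerophosphocholine, rose by 1.21 (2.31-fold, SE 0.22, adjusted p = 0.00073) and fell by 1.64 on removal. CDO1 makes a precursor of an osmolyte, while GPCPD1 breaks one down.

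Among 18 genes of ion transport and cell volume, 2 passed on addition, and both fell. The 18 changes ran from −2.55 to 1.21, and 9 were above 0. The methods' t-test called 1 of the 18 on addition and none on removal. STK39 (SPAK), the kinase that switches on the sodium, potassium and chloride cotransporters, fell by 2.55 (5.85-fold, SE 0.21, adjusted p = 1.7e-07 with limma). On removal it rose by 1.57 (2.97-fold, SE 0.21), and against never exposed cells it differed by −0.98 (adjusted p = 0.0086), which did not pass, while with slide as a block it was −1.01 (adjusted p = 0.00053), which did. Of 6 genes of glycerol handling, MGLL, the monoacylglycerol lipase that releases glycerol, fell by 1.02 (2.03-fold, SE 0.18). The methods' t-test called none of the 6 on addition.

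The 9 other SLC38 transporters held 3 that rose and 1 that fell. The methods' t-test called 3 of the 9 on addition and 1 on removal. SLC38A3 rose by 1.81 (3.50-fold, SE 0.18, adjusted p = 1.1e-06 with limma) and fell by 1.91 on removal. SLC38A9, an amino acid sensor of the lysosome, rose by 1.27 (SE 0.13) and SLC38A6 by 1.13 (SE 0.23). SLC38A4 fell by 1.39 (2.63-fold, SE 0.27). On removal SLC38A6 differed by −0.05, while SLC38A9 and SLC38A4 differed by −0.97 and 1.08 and did not pass. Of the 10 genes of these lists that passed on addition, 9 passed with slide as a block, all but SLC38A6, and 6 without the arrays of slide 4, where SLC38A4, GPCPD1, SLC38A6 and MGLL did not. Their changes without that slide were −1.37, 1.24, 1.17 and −0.71, and the number of all genes that passed was 984 in place of 1301. The fit without slide 4 has only 2 D30 + DMSO arrays, both on slide 3.

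**Figure D4:**
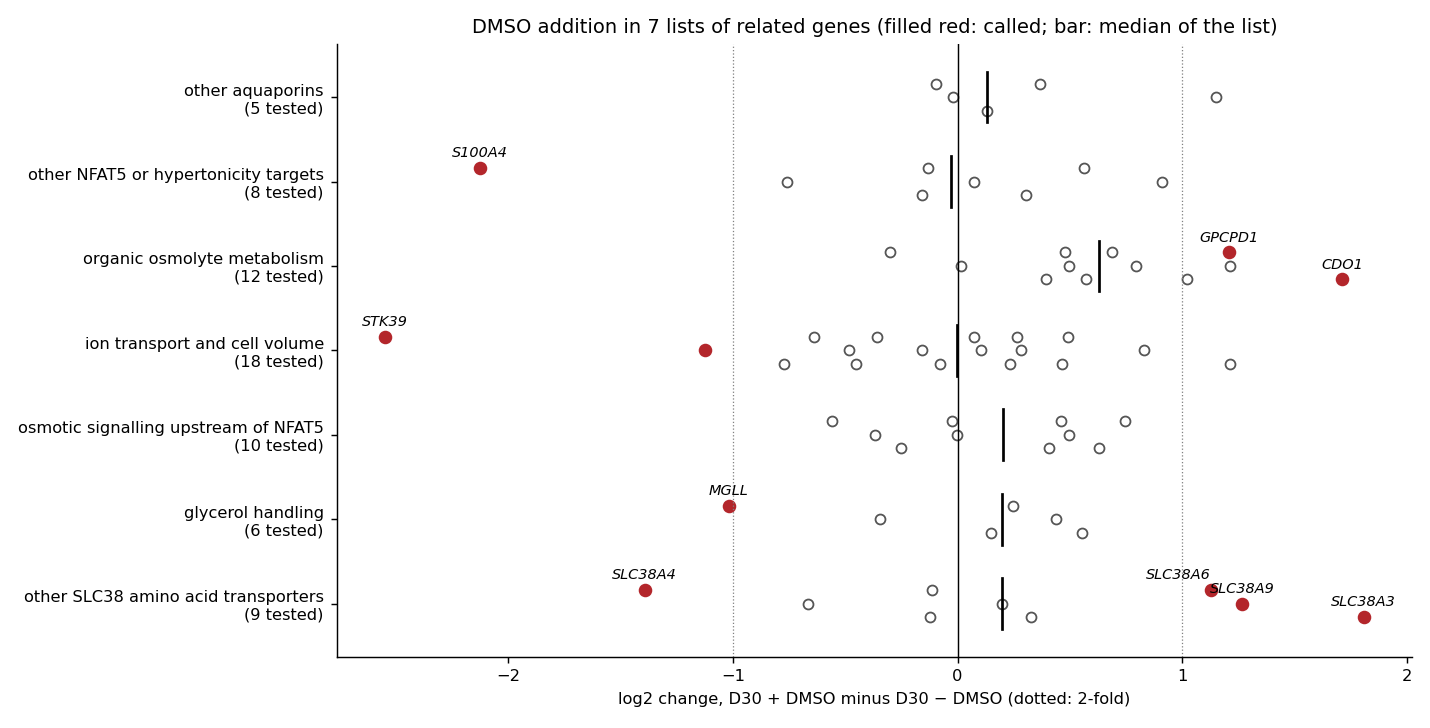
Log2 change on DMSO addition, D30 + DMSO minus D30 − DMSO, of the tested genes of 7 lists, with 1 point for each gene, filled red points for genes that passed the test and a bar at the median of each list. The 2 filled points of organic osmolyte metabolism lie to the right, and those of the NFAT5 targets and of ion transport lie to the left.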

How the data were processed

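Total RNA of HepaRG cells was measured on 20 one-color Agilent 8x60K arrays, 4 for each condition, grouped by the titles in the labels. The authors deposited, for each array, the intensity tables of Feature Extraction, with version 10.7.3.1 in the submitters' processing notes and 10.7.1.1 in the file headers. Its processed signal is the intensity of a spot after background subtraction, without scaling between arrays. A second file the authors deposited gives log2 values centred on a baseline for every probe, and served as an alternative. For 21335 probes its differences between arrays match those of the scanner values, with a median absolute difference of 3.0e-07 and an array shift of at most 0.10, while the baseline of the matrix is unknown. The medians of its columns lay between −0.20 and 0.17.

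Outlier-flagged spots, between 0.451% and 1.10% of an array, were left out, and spots of a probe were averaged. Signals were scaled to the 75th percentile of the array (407 to 766 intensity units), given a floor of 1 and taken to log2. The filter kept 26344 probes, those with most spots well above background on every array of some condition. Probes were named through RefSeq accessions of GRCh38.p14, which gave a symbol for 24826 probes, and 17579 keep the name of the array. A gene was represented by its brightest probe on average, and 3675 genes have more than 1. One model with 5 condition means was fitted with limma 3.58.1 in R 4.3.3, and confidence intervals are of 95%. Thresholds are those of the study's methods. Further probes of a gene were tested in a fit over all probes. The test was checked on simulated data with known changes and independent noise, without effects of slide, scan session or replicate. That check therefore says nothing of false calls that come from shared slides. The number of arrays limits the precision.

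The members, the lists, the thresholds and the alternatives were chosen with earlier results of these data known. The named genes are the members, the genes of the other lists that passed for DMSO addition, removal or D34 ± DMSO against D30 − DMSO, at most 12, and for each member that passed on addition or removal the 3 genes most correlated with it. One gene of the lists that passed is not reported here. MRPS6 was added because its gene overlaps SLC5A3. The alternatives were quantile normalization, limma's normexp correction of the median intensities with an offset of 50 and quantile normalization, the authors' matrix values, no filter and a filter on all arrays, a floor of 10, blocks for the slide, the scan session or the replicate number, a fit restricted to the conditions compared, the t-test and analysis of variance of the methods, an adjusted p below 0.05, no fold limit, the mean of a gene's probes, every probe tested, and each array left out in turn. A 75th percentile over probes and a fit without slide 4 were added after the data were seen. The ChIP-seq data of the study were not analysed here. Figures were drawn with matplotlib 3.10.9 in Python 3.11.15.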

Additional observations from a re-analysis of the deposited data

Results flagged for a closer look

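In 5 of 50 groups of 4 arrays, 1 for each gene and condition, a single array stood apart from the other 3 by more than Dixon's 95% critical share of the group's range, where chance gives about 5% of groups. AQP7 was lowest on replicate 4 at D30 − DMSO, at 0.83 against 1.43 for the next array, and on replicate 4 at D34 ± DMSO, at 0.71 against 1.58. AQP11 was highest on replicate 4 at D15, at −0.80 against −1.26. AKR1B1 was highest on replicate 4 at D30 − DMSO, at 5.00 against 4.16. SLC5A3 was highest on replicate 2 at D34 ± DMSO, at −0.27 against −1.02. The 4 values of replicate 4 come from 3 arrays, all on slide 4, and the part of the slide in these values was not tested.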

How the results depend on the processing

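Of 37 alternative settings, 20 of which leave out 1 array each, the number of members that passed for DMSO addition was the same under 36, the exception being slide as a block with 3. For DMSO removal it was the same under 36, and the methods' t-test called 0. The numbers for D34 ± DMSO against D30 − DMSO, D15 to D30 − DMSO and D15 to D30 + DMSO were the same under all 37. For D4 to D15 it was 3 in place of 4 under the t-test, where AQP11 had an adjusted p of 0.0117, and under the filter that asks for signal on all arrays, which removes AQP7. That filter also gave 3 in place of 4 for the F-test. Leaving out each array gave 2 to 2 members for addition and for removal, and 4 to 4 for D4 to D15. With a replicate block, 2 members passed for addition, 2 for removal and 4 for D4 to D15, with 1524 genes in all for addition in place of 1301. The block changed no call of a member. Same-numbered arrays of different conditions deviated together in 27 of 40 pairs (r above 0.1), against 44 of 120 differently numbered pairs. Median r was 0.28 for the former and −0.17 for the latter. Of the same-numbered pairs, 18 shared a slide (median r 0.58) and 22 did not (median r 0.07). Differently numbered pairs had a median r of 0.31 on the same slide (26 pairs) and −0.23 on different slides (94 pairs). The labels do not say that a number marks 1 experiment, so the main fit did not pair the arrays. The replicate block is the fit that does.

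The number of all genes that passed depends more on the setting. For addition it was 685 with normexp, 859 with the filter on all arrays, 580 with the t-test and 2108 with no fold limit. For removal, with 1554 genes, it was 870 with normexp, 491 with the t-test and 2605 with no fold limit. For D34 ± DMSO against D30 − DMSO, with 338 genes, it was 171 over only the arrays compared and 41 with the t-test. For D4 to D15, with 2103 genes, it was 1347 with normexp and 1108 with the t-test. For D15 to D30 + DMSO, with 1420 genes, it was 792 with normexp, 582 with the t-test and 2322 with no fold limit, and 46.0% of its calls were higher with normexp against 34.5%. For D15 to D30 − DMSO, with 1 gene, it lay between 0 and 10. The F-test called 545 genes without slide 4 in place of 1194. These causes were not tested. Signal over background limits AQP7 and a further AQP3 probe at D4, and AQP4 at D4 and at D34 ± DMSO.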
